A study of Mus musculus with 4 samples.

Results

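Autophagy is the route by which a cell wraps damaged organelles and protein aggregates in a double membrane, the autophagosome, and delivers them to lysosomes for digestion. The kinase ULK1 starts the process, VMP1 and the WIPI proteins act where the membrane grows, ATG8 proteins such as LC3B and GABARAPL1 are attached to that membrane, the cargo receptor p62 (Sqstm1) links cargo to them, and the transcription factor TFEB drives lysosomal genes such as Lamp1. Proximal tubule cells, which reabsorb most of the filtered load and take up many toxins, are known for relying on autophagy after injury.

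The genes described here are 8 named autophagy genes (Vmp1, Sqstm1, Map1lc3b, Gabarapl1, Ulk1, Wipi1, Tfeb and Lamp1) out of 19632 gene rows in a table of cluster averages from single-nucleus RNA sequencing of mouse kidney cortex. They were chosen by name, and Vmp1 also because its level in the InjuredPT-A cluster after AAI was known to be among the largest rises, so that level is a description and supports nothing further. Of the 8, 7 had values in the table, and Map1lc3b was not analysed here.

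Nuclei came from 4 male mice of mixed strain, 1 mouse per condition. The control genotype carried the TRE-hKLF6 transgene without an activator, and hKLF6OE mice carried CAG-rtTA,TRE-hKLF6, which switches on human KLF6, a zinc-finger transcription factor, in all tissues rather than in the tubule alone. Per the study's methods both genotypes ate a doxycycline diet, and the treated mouse of each received a single injection of 2 mg/kg aristolochic acid I (AAI), a plant toxin that forms DNA adducts in proximal tubule cells, 24 hours before collection. A level is the deposited average over the nuclei of 1 cluster and 1 mouse, in counts per 10000 counts of a nucleus, and levels were available for 23 clusters in each mouse. With 1 mouse per condition no difference could be tested, and every comparison below sets single mice side by side.

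Clusters carry names from the study's order of marker sheets, and 6 of 8 sheets that could be checked peaked in the cluster of their own number. The 5 normal proximal tubule clusters (PT-S1-S2-1, PT-S1-S2-2, PT-S3-1, PT-S3-2 and PT-S3-3) were averaged with equal weight. InjuredPT-A and InjuredPT-B are the injured proximal tubule clusters. Depth and nuclei per column are unknown. The study reports these injured clusters nearly only in mice with AAI, so their columns without AAI rest on few nuclei. In 15 of 92 columns over 50% of all genes were at 0, among them InjuredPT-A of the control mouse, where 62.6% were at 0 and the smallest level above 0 was 0.151. In the AAI mice InjuredPT-A had 22.5% and 22.2% of genes at 0. InjuredPT-A also held markers of other kidney cells. Summed over 42 such markers, its level was 19.9 against 10.6 in normal proximal tubule of the control mouse with AAI, and 29.0 against 11.29 in the hKLF6OE mouse with AAI. Of the 42, 36 and 37 were above their normal proximal tubule level, Cldn16 was at 0 in the first mouse, and C1qb and Itga8 were at 0 in the second. The sums in InjuredPT-B were 12.8 and 14.4. Without AAI the InjuredPT-A sums were larger, at 39.8 against 9.80 in control and 62.9 against 11.6 in hKLF6OE, with 20 and 3 of the 42 markers at 0 and with Umod, a gene of the thick ascending limb, at 15.4 and 21.1. The part of these markers in the differences below was not tested.

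The largest difference among the 7 genes was in a gene that also hosts a microRNA. Vmp1 encodes a multi-pass membrane protein of the endoplasmic reticulum needed for autophagosome formation. In GRCm38, the build of the files, it spans 99.972 kb at chr11:86583865-86683836 on the minus strand. The 92-base hairpin of Mir21a (chr11:86584067-86584158) lies on the same strand in the last exon of Vmp1, inside the 3′ UTR annotated at chr11:86583865-86585310 and 202 bases before the annotated end of the gene. Mir21a had no values of its own in the table, so transcripts that hold this hairpin and mature Vmp1 mRNA cannot be told apart in the Vmp1 level. Its mature products are shown because they are the best known product of this locus, with bases 2 to 8, the seed, in capitals, from RefSeq on GRCm38.p6.
mmu-miR-21a-5p: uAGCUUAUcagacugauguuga
mmu-miR-21a-3p: cAACAGCAgucgaugggcuguc

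Promoters were read from RefSeq windows on GRCm38.p6, as the 250 bases before the start nearest to each annotated gene start, for all 8 genes. They were searched on both strands for CACGTG, the palindrome at the centre of the CLEAR element that TFEB binds, for TGACTCA, an AP-1 motif, and for TGACGTCA, a cAMP response element. CACGTG occurred 4 times before Lamp1, the lysosomal membrane glycoprotein, and was held at least once by 6.02% of 32851 windows of that length. The other 7 windows held none of the 3 motifs, which are found in 4.46% of all windows for TGACTCA and 1.55% for TGACGTCA. The windows of Lamp1 (chr8:13158911-13159160, plus strand, CACGTG in capitals) and Vmp1 (chr11:86683837-86684086, minus strand) are shown as the gene with the motif and the gene with the largest difference.
Lamp1: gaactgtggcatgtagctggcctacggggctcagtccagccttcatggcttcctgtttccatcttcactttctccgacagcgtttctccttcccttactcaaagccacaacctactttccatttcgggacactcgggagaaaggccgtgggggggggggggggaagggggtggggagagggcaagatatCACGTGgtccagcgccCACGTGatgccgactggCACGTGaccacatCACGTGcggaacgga
Vmp1: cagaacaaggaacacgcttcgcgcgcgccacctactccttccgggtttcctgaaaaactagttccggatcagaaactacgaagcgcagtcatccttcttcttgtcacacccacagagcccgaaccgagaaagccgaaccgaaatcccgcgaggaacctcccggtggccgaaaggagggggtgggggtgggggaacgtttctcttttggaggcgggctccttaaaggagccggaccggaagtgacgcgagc

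Vmp1 stood highest in both injured proximal tubule clusters of both AAI mice. In InjuredPT-A its level was 3.49 in the control mouse, 15.9 in the control mouse with AAI, 3.05 in the hKLF6OE mouse and 19.5 in the hKLF6OE mouse with AAI. In InjuredPT-B the levels were 1.91, 6.97, 3.14 and 8.16 in the same order. In normal proximal tubule they were 2.33, 3.36, 2.53 and 3.68. The AAI mice were thus above the mice without AAI in all 3 places, and by most in InjuredPT-A. In both injured clusters the levels without AAI rest on few nuclei, so these differences may not compare like nuclei. Over the other 21 clusters Vmp1 reached at most 4.31 in the control mouse with AAI (PT-S3-3) and 5.32 in the hKLF6OE mouse with AAI (Macrophage), so every cluster of another cell type was below its level in both injured clusters of the same mouse. That Macrophage column had 56.9% of genes at 0.

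**Figure D1:**
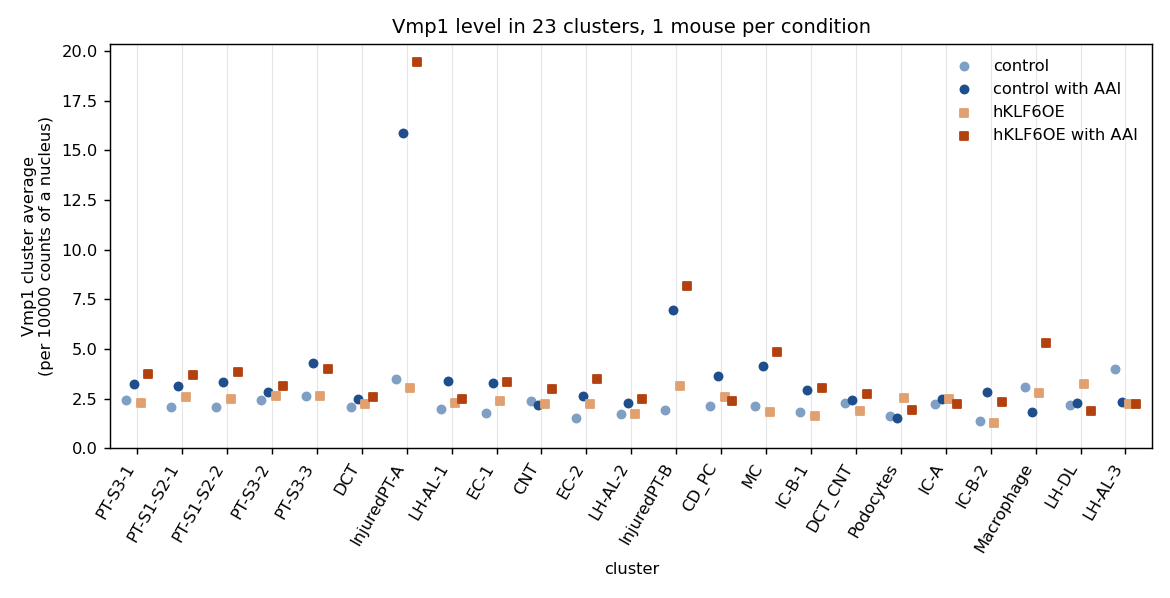
Vmp1 level (counts per 10000 counts of a nucleus, vertical axis) in each of 23 clusters (horizontal axis), with 1 point per mouse. InjuredPT-A of the AAI mice, at 15.9 and 19.5, and InjuredPT-B, at 6.97 and 8.16, lie above every other point.

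Ordered by the mean of the AAI mice, Vmp1 was highest in InjuredPT-A and next in InjuredPT-B, and the ranges of these clusters over the 2 mice did not overlap with each other or with the next cluster. That next cluster, MC (mesangial cells by the study's name), spanned 4.15 to 4.85 and overlapped PT-S3-3, at 3.99 to 4.31. Podocytes were lowest, at 1.55 and 1.91. Without AAI there was no such separation, as Vmp1 was highest in LH-AL-3 of the control mouse, at 4.00, and in LH-DL of the hKLF6OE mouse, at 3.22.

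Differences between clusters were taken as the difference of log2(level + 1) within a mouse, which understates the change of genes with low levels, among genes whose larger level was at least 0.5. A gene is called higher or lower here where the difference was 0.2 or more in both AAI mice. A gene that reached 0.5 only in the injured cluster could only be called higher. A gene that reached it only in normal proximal tubule could only be called lower. In InjuredPT-A against normal proximal tubule, Vmp1 differed by 1.95 in the control mouse with AAI and 2.13 in the hKLF6OE mouse with AAI, or 4.73 and 5.29 times the normal level. It ranked 21 of 5479 and 15 of 5337 genes. In InjuredPT-B the differences were 0.87 and 0.97, with ranks of 21 of 4577 and 27 of 4499. The same step in InjuredPT-A was taken by many genes. Of 5008 genes, 43.3% were called higher and 27% lower there, and the median gene was shifted by 0.22 and 0.16. Relative to that median Vmp1 differed by 1.73 and 1.96.

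Of the 7 genes, 6 passed the filter in InjuredPT-A, 3 were called higher (Vmp1, Ulk1 and Lamp1) and Tfeb was called lower. In InjuredPT-B 5 passed, Vmp1 and Sqstm1 were called higher and none was called lower, against 23.4% of 4148 genes higher and 13.1% lower. As these shares show, a count of this size is close to what the whole table gives, and the genes are described singly.

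**Figure D2:**
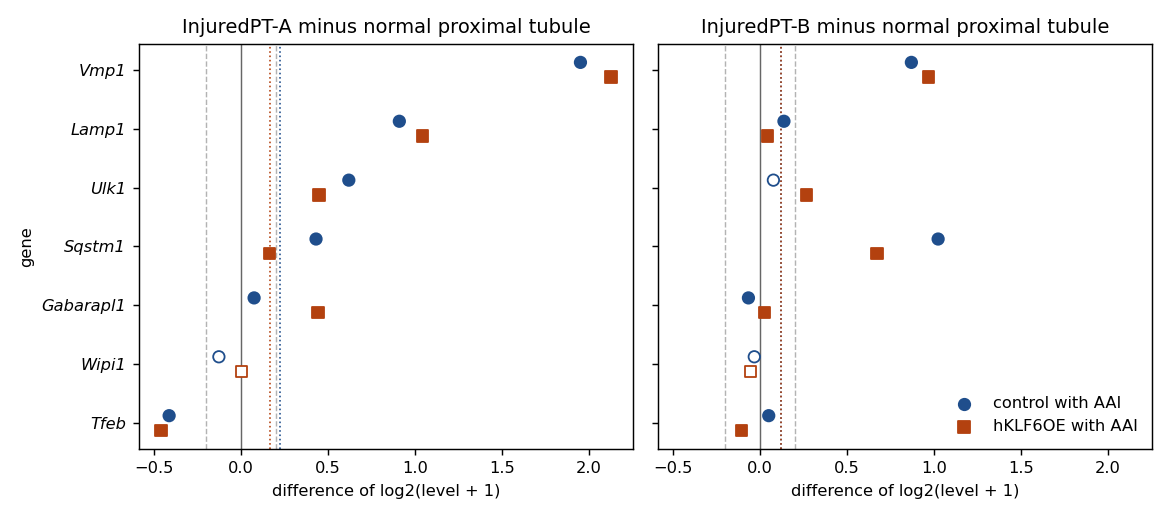
Difference of log2(level + 1) between an injured cluster and normal proximal tubule (horizontal axis) for 7 genes (vertical axis) in the 2 AAI mice, with open points for genes under the level filter, dotted lines at the median of all genes in each mouse and dashed lines at 0.2 in either direction. Vmp1 lies farthest right in InjuredPT-A, Sqstm1 is at 1.02 and 0.67 in InjuredPT-B, and Tfeb is the one gene left of the dashed lines, in InjuredPT-A.

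Calls in InjuredPT-A differed by gene span. In InjuredPT-A 73.7% of genes under 30 kb were called higher, against 32.3% of genes from 30 to 100 kb and 6.74% of those over 100 kb, and 71.7% of the last class were called lower. At 99.972 kb Vmp1 sits at the upper edge of the middle class, where it ranked 4 of 1891 genes in each AAI mouse. As Vmp1 was chosen for its level in this cluster, that rank is a description and supports nothing further. Ulk1 (25.61 kb), Lamp1 (16.178 kb), Sqstm1 (11.462 kb) and Gabarapl1 (9.187 kb) are in the short class, and Tfeb (55.39 kb) and Wipi1 (38.637 kb) in the middle class. In InjuredPT-B the short and middle classes differed little, with 25.9% and 26.8% called higher.

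**Figure D3:**
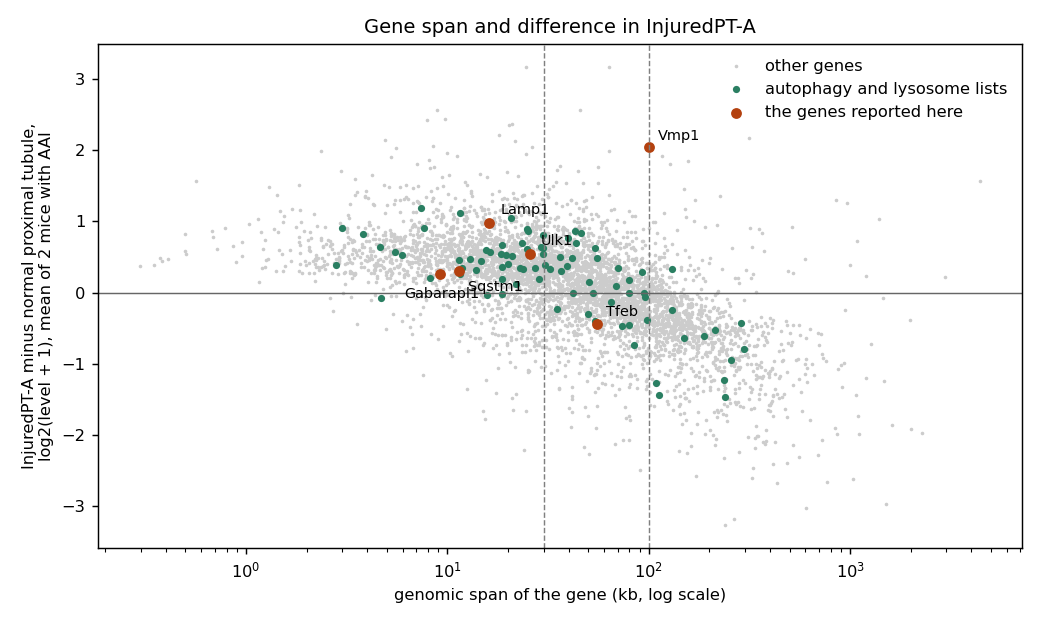
Genomic span of each gene (kb, log scale, horizontal axis) against its difference in InjuredPT-A from normal proximal tubule (log2(level + 1), mean of the 2 AAI mice, vertical axis), with dashed lines at 30 and 100 kb. The cloud falls from left to right, and the list genes over 100 kb lie mostly below 0. Vmp1, which was chosen for its level in this cluster, lies far above genes of like span.

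Outside the injured clusters, the Vmp1 difference with AAI was smaller. In normal proximal tubule it was higher with AAI by 0.39 in control and 0.41 in hKLF6OE. Of the 5 genes that passed in both pairs of mice, Vmp1 was the one called higher and Gabarapl1 the one called lower, against 7.66% and 5.83% of 3892 genes. In the control genotype Vmp1 was higher by at least 0.2 in 14 of 23 clusters, as were 4.89% of genes in that many clusters. In hKLF6OE it was higher in 15 of 23, as were 12.3% of genes. These counts include both injured clusters, and without them it was higher in 12 of 21 clusters of control, as were 6.21% of genes, and 13 of 21 of hKLF6OE, as were 13.8%. Shares of this kind, here and below, are over genes that passed the filter in every cluster counted. For all 23 clusters these were 2047 genes in control and 2056 in hKLF6OE. In PT-S3-2 the differences were 0.16 and 0.18, and the other 4 normal proximal tubule clusters were past 0.2 in both genotypes. Clusters beyond the proximal tubule also moved, such as MC by 0.73 and 1.04 and IC-B-1 by 0.48 and 0.61. The clusters where Vmp1 was lower by 0.2 or more were Macrophage and LH-AL-3 in control and Podocytes and LH-DL in hKLF6OE. With columns of over 50% of genes at 0 left out, Vmp1 was higher in 11 of 17 clusters of control and lower in 0, and higher in 12 of 18 of hKLF6OE and lower in 1. The share of all genes was not worked out for these sets of clusters.

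Among the genes that start and extend the membrane, Ulk1 was higher in InjuredPT-A and Wipi1 stayed under the filter. Ulk1, the serine/threonine kinase of the initiation complex, was at 1.03 in InjuredPT-A of the control mouse with AAI and 0.831 in that of the hKLF6OE mouse with AAI, against 0.318 and 0.341 in normal proximal tubule, a difference of 0.62 and 0.45. InjuredPT-A was the highest of 23 clusters for Ulk1 in both AAI mice, although IC-B-1 of the hKLF6OE mouse with AAI came close, at 0.819. Without AAI the InjuredPT-A levels were 0.864 in control and 0.237 in hKLF6OE, so the mice with and without AAI did not separate. Wipi1, which binds phosphoinositides on the growing membrane, was between 0.278 and 0.431 in normal proximal tubule of the 4 mice and between 0.191 and 0.435 in InjuredPT-A.

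Gabarapl1, an ATG8 protein, was the gene whose difference with AAI covered the most clusters. Its normal proximal tubule level was 1.94 in control and 0.856 in control with AAI, and 1.23 in hKLF6OE and 0.618 in hKLF6OE with AAI, a difference of -0.67 and -0.46. The AAI mice were below the mice without AAI in all 23 clusters of both genotypes. The difference was past 0.2 in 20 clusters of control and 21 of hKLF6OE, and 2.25% and 4.82% of genes that passed in all 23 were lower in as many clusters. Gabarapl1 itself passed in 22 clusters of hKLF6OE, so it is outside that second set. In InjuredPT-A the level was 4.11 in control and 3.26 in hKLF6OE, the highest of any cluster of those mice, and 0.955 and 1.20 with AAI. Those columns without AAI rest on few nuclei. They are also the ones with marker sums of 39.8 and 62.9 for other kidney cells, whose part was not tested. With columns of over 50% of genes at 0 left out it was lower in 15 of 17 and 17 of 18 clusters. The share of all genes lower in as many of these clusters was not worked out.

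The share of counts from mitochondrially encoded genes moved with it, and its part in the difference was not tested. The median share over clusters was 2.22% in control, 1.30% in control with AAI, 2.89% in hKLF6OE and 1.25% in hKLF6OE with AAI. With these genes left out and the columns rescaled, Gabarapl1 was called lower in both genotypes as before. Leaving out so small a share could move levels only little, so that outcome says nothing about its part. Within the AAI mice, InjuredPT-A differed from normal proximal tubule by 0.08 in control and 0.44 in hKLF6OE, and InjuredPT-B by -0.07 and 0.02. Against normal proximal tubule of the mouse without AAI the InjuredPT-A difference turned to -0.59 and -0.017. The gene's locus (chr6:129533160-129542346, plus strand) overlaps 1700101I11Rik on the opposite strand over 658 bases.

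**Figure D4:**
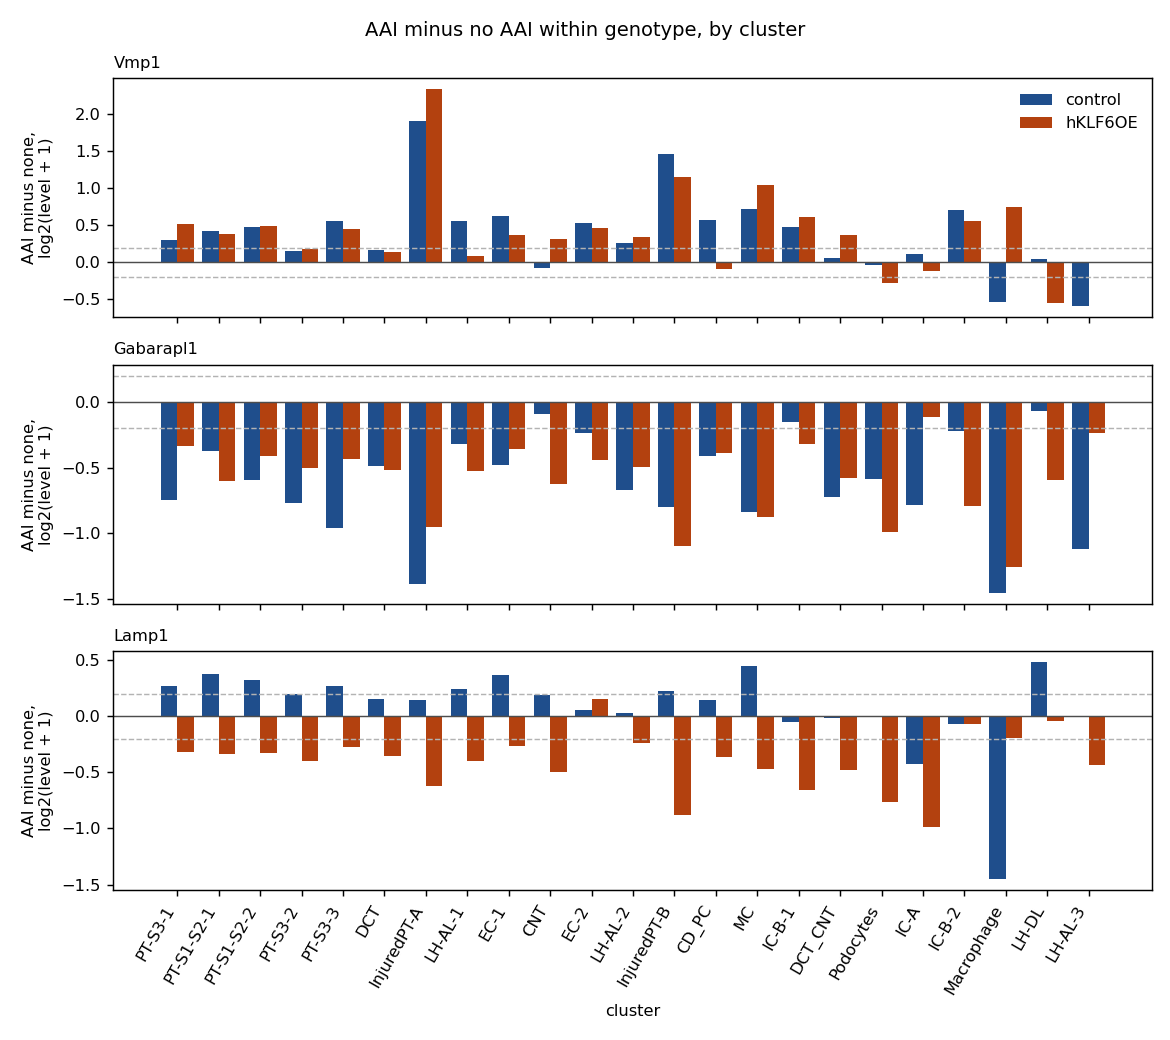
Difference of log2(level + 1), AAI minus no AAI (vertical axes), in 23 clusters (horizontal axis) for Vmp1, Gabarapl1 and Lamp1, with 1 bar per genotype and dashed lines at 0.2 in either direction. Vmp1 bars are tallest in the injured clusters, Gabarapl1 bars are below 0 in all 23 clusters of both genotypes, and Lamp1 bars of hKLF6OE are below 0 in 22 of 23.

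Map1lc3b, which encodes LC3B, the ATG8 protein most used as an autophagosome marker, was not analysed here. Its locus (chr8:121590361-121598760, plus strand) lies wholly within the gene model Gm20388 (chr8:119910841-124345722), on the same strand.

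Sqstm1 was highest in InjuredPT-B rather than InjuredPT-A. It encodes p62, a cargo receptor that also binds KEAP1, the repressor of the antioxidant factor NRF2. In InjuredPT-B its level was 1.61 in control, 4.47 in control with AAI, 3.22 in hKLF6OE and 2.86 in hKLF6OE with AAI. In normal proximal tubule it was 2.04, 1.69, 1.67 and 1.42, with the AAI mouse below its partner in each genotype. InjuredPT-B was the highest of 23 clusters in 3 of the 4 mice, all but the control mouse without AAI.

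Against normal proximal tubule of the same mouse, Sqstm1 in InjuredPT-B differed by 1.02 and 0.67 in the AAI mice and ranked 11 of 4577 and 89 of 4499. In InjuredPT-A the differences were 0.43 and 0.16. The ranges of the AAI mice, 2.86 to 4.47 in InjuredPT-B and 1.71 to 2.63 in InjuredPT-A, did not overlap, whereas InjuredPT-A overlapped PT-S3-3, at 1.92 to 2.27. The InjuredPT-B columns without AAI had 51.3% and 55.7% of genes at 0. Sqstm1 (chr11:50199366-50210827, minus strand) shares 750 bases with Mrnip on the opposite strand.

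Tfeb, the master regulator of lysosomal genes, was at its lowest in InjuredPT-A. Its level there was 0.224 in control, 0.172 in control with AAI, 0.233 in hKLF6OE and 0.205 in hKLF6OE with AAI. In normal proximal tubule it was 0.708, 0.561, 0.655 and 0.657. All 4 mice thus had less Tfeb in InjuredPT-A than in normal proximal tubule, and InjuredPT-A was the lowest of 23 clusters in 3 of them and next to the lowest, above MC, in the control mouse with AAI. The InjuredPT-A column of the control mouse without AAI had 62.6% of genes at 0. Its smallest level above 0 was 0.151, so 0.224 is near its floor. The differences in the AAI mice were -0.41 and -0.46, which widen to -0.64 and -0.62 relative to the median gene. The call ends with a minimum level of 1, and with the 3 PT-S3 clusters as the reference, where the differences were -0.35 and -0.33 but the larger level of the control mouse with AAI, 0.495, was under the filter. In InjuredPT-B they were 0.05 and -0.11. Tfeb was highest in distal segments, such as IC-A, at 1.99 in control and 1.75 in hKLF6OE, and CNT, at 1.61 in control with AAI. With AAI it was lower by 0.2 or more in 7 clusters and higher in 0 of control, but higher in 8 and lower in 1 of hKLF6OE. In a single cluster of either genotype, between 10.6% and 46.3% of genes were higher and between 12% and 43.9% lower. That range is a different measure, and the share of genes called in as many clusters as Tfeb was not worked out.

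Lamp1, the transcript of an abundant lysosomal membrane glycoprotein, was higher in InjuredPT-A with and without AAI. Its InjuredPT-A level was 4.34 in control, 4.91 in control with AAI, 7.28 in hKLF6OE and 4.37 in hKLF6OE with AAI. In normal proximal tubule it was 1.56, 2.15, 2.28 and 1.61. InjuredPT-A was the highest cluster in 3 mice and second to EC-2 in the hKLF6OE mouse with AAI, where the levels were 4.86 and 4.37. The differences in the AAI mice were 0.91 and 1.04 in InjuredPT-A and 0.14 and 0.04 in InjuredPT-B. Over the AAI mice InjuredPT-A (4.37 to 4.91), MC (4.03 to 4.88) and EC-2 (3.37 to 4.86) overlapped. The InjuredPT-A share of mitochondrially encoded counts was 6.23% in control and 7.70% in hKLF6OE, and 1.84% and 2.35% with AAI, and the summed markers of other kidney cells were at 39.8 and 62.9, and 19.9 and 29.0 with AAI. The part of either in the Lamp1 level was not tested. Lamp1 (chr8:13159161-13175338, plus strand) shares 3317 bases with Grtp1 on the opposite strand.

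Lamp1 also differed in direction between the genotypes. In normal proximal tubule AAI minus none was 0.29 in control and -0.33 in hKLF6OE, and 0.617% of 3892 genes were higher in the first and lower in the second, while 1.26% were past 0.2 in opposite directions either way. Without AAI, hKLF6OE minus control was 0.36, and with AAI it was -0.27. Of 3690 genes, 1.6% were higher without AAI and lower with it, and 2.68% were past 0.2 in opposite directions either way. By level, hKLF6OE (2.28) and control with AAI (2.15) were above hKLF6OE with AAI (1.61) and control (1.56). The hKLF6OE mouse without AAI was above the control mouse in all 23 clusters, and by at least 0.2 in 21, as were 2.06% of genes. Within hKLF6OE, the AAI mouse was lower in 19 clusters, as were 7.39% of genes. The hKLF6OE mouse without AAI had the highest median mitochondrial share of the 4 mice. With mitochondrially encoded genes left out, Lamp1 was called in the same directions. As for Gabarapl1, this could move levels only little and says nothing about the part of that share, which was not tested.

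**Figure D5:**
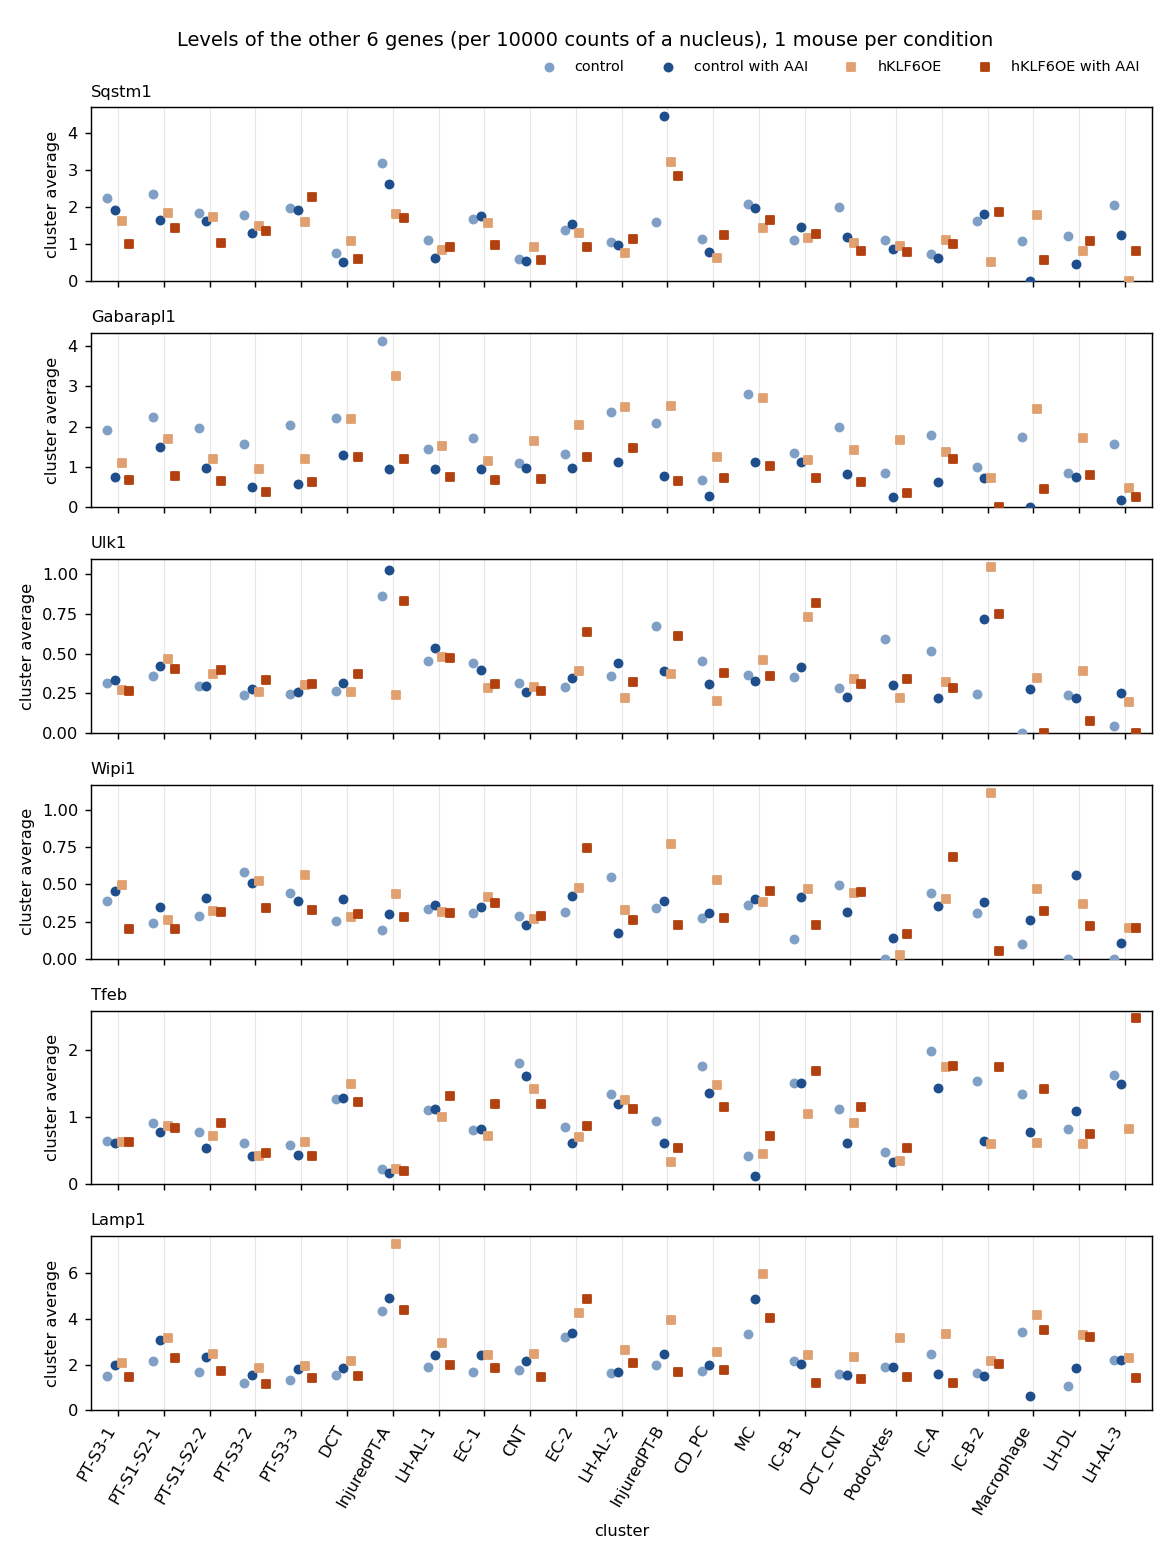
Levels (counts per 10000 counts of a nucleus, vertical axes with a scale for each gene) of Sqstm1, Gabarapl1, Ulk1, Wipi1, Tfeb and Lamp1 in 23 clusters (horizontal axis), with 1 point per mouse. Sqstm1 peaks in InjuredPT-B, Tfeb is between 0.172 and 0.233 in InjuredPT-A of the 4 mice, and Lamp1 of hKLF6OE without AAI is above control in every cluster.

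Between the genotypes at the same treatment, no gene of the 5 that passed in normal proximal tubule was called in the same direction with and without AAI, against 0.65% of 3690 genes higher and 1.92% lower. Taken singly, without AAI Lamp1 was higher and Gabarapl1 lower, against 7.84% and 9.33% of 4041 genes, and with AAI 0 were higher and Lamp1 was lower, against 6.32% and 7.74% of 3942 genes. Gabarapl1 was lower in hKLF6OE by 0.40 without AAI and differed by -0.20 with AAI, just short of the threshold. In InjuredPT-A with AAI, Vmp1 was higher in hKLF6OE by 0.28 and Sqstm1 lower by 0.42, and in InjuredPT-B by 0.20 and 0.50, where 13.1% and 17.6% of genes were higher and 22.3% and 18.5% lower. In InjuredPT-B Ulk1 was also higher, by 0.22, and Lamp1 lower, by 0.37.

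The other genes of the pathway were taken from 12 lists of autophagy and lysosome genes, which hold 140 genes beyond the 8, of which 138 had values. In InjuredPT-A 84 of these passed the filter, 50 were called higher and 16 lower, with medians of 0.33 and 0.35 in the AAI mice, beside 0.19 and 0.15 over all genes that passed in both. Called higher were thus 59.5% of list genes, against 43.3% of all genes, and 16 of 84 were lower, against 27% of all genes. These shares differed by length class. Of 42 list genes under 30 kb, 83.3% were higher, against 73.7% of all genes of that class. Of 30 from 30 to 100 kb, 46.7% were higher, against 32.3%. Of 12 over 100 kb, 83.3% were lower, against 71.7%. Some list genes, such as Atg14 and Becn1, reached 0.5 only in InjuredPT-A, so the filter fixed their direction. The same filter was used for all genes.

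The vacuolar ATPase, the proton pump that acidifies lysosomes, had 12 of 14 genes higher and 1 lower in InjuredPT-A, with medians of 0.42 and 0.61, against 43.3% of all genes higher and 27% lower. Of the 14, 8 are under 30 kb, the class in which 73.7% of all genes were higher, and 7 of these 8 were higher. Atp6v1b2 was higher by 1.01 and 0.73 and Atp6v0b by 0.92 and 0.88, while Atp6v0a1 differed by -0.41 and -0.38. Of 16 lysosomal membrane and enzyme genes, Lamp1 included, 11 were higher and 1 lower, and 12 of the 16 are under 30 kb. The proteases Ctsl (1.12 and 1.11) and Tpp1 (1.40 and 0.96) led them, and Glb1, beta-galactosidase, differed by -0.31 and -0.62. In the fusion list 4 of 5 were higher, and 3 of the 5 are under 30 kb, all 3 of them higher. Rab7, the GTPase of late endosomes, was higher by 0.95 and 0.72. Vps41 of the HOPS tethering complex, which spans 149.526 kb, differed by -0.58 and -0.69.

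In the membrane supply list, which holds Vmp1, 4 of 6 were higher and 0 lower, or 3 of 5 without Vmp1. For this list and those below, 43.3% of all genes were higher and 27% lower. The higher membrane supply genes included Wipi2, the WIPI protein that recruits the conjugation machinery, by 0.76 and 0.96, and Tmem41b, a scramblase that works with VMP1, by 0.46 and 0.42. Of the ATG8 proteins Gabarap (0.77 and 0.88) and Gabarapl2 (0.36 and 0.58) were higher, so Gabarapl1 was the one of the 3 that passed without a call. Atg3 and Atg12 were among 4 of 6 conjugation genes that were higher, and Atg10 was lower by 0.46 and 0.40. In the class III PI3-kinase list Atg14 (0.87 and 0.76) and Becn1 (0.65 and 0.49) were higher and Uvrag (-0.94 and -0.95) and Ambra1 (-0.71 and -0.51) lower. Atg10, Uvrag and Ambra1 are over 100 kb, at 288.613, 256.121 and 188.716 kb. In the ULK list Ulk1 and Rb1cc1 (0.31 and 0.39) were the 2 of 3 that were higher. Of 10 cargo receptors, Sqstm1 included, 5 were higher, such as Nbr1 by 0.56 and 0.52, and the 236.966 kb gene Wdfy3 was lower by 1.24 and 1.23.

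The regulators were called in both directions, beside 43.3% of all genes higher and 27% lower. Of 6 transcription factors of autophagy genes 0 were higher and 3 were lower in InjuredPT-A, namely Foxo1 (-0.69 and -0.78), Mitf (-0.52 and -0.54) and Tfeb. Only 1 of these 6 is under 30 kb, and Mitf spans 214.298 kb. Of 13 genes of mTORC1, the nutrient-sensing kinase complex that restrains autophagy, and its regulators, 6 were higher and 5 lower. Of the 13, 4 are under 30 kb and all 4 were higher. The core mTORC1 genes Mtor (-1.47 and -1.07) and Rptor (-0.74 and -0.84) and the folliculin partner Fnip2 (-1.68 and -1.20) were lower. Lamtor1 (1.29 and 0.81), Rheb (0.77 and 0.77) and Flcn (0.74 and 0.60) were higher. The lower genes Mtor, Rptor and Fnip2 are all over 100 kb, at 109.073, 296.672 and 111.823 kb. Of 4 AMPK subunits Prkag2 (-1.52 and -1.41) and Prkaa2 (-0.44 and -0.46) were lower and Prkab2 (0.68 and 0.52) higher. Prkag2 spans 237.899 kb.

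In InjuredPT-B 71 of the list genes passed, 11 were higher and 6 lower, with medians of 0.13 and 0.12 beside 0.11 and 0.10 over all genes. These are 15.5% and 8.45%, below the 23.4% and 13.1% of all genes. These shares differed by length class as well. Of 28 list genes under 30 kb, 28.6% were higher, against 25.9% of all genes of that class. Of 31 from 30 to 100 kb, 9.68% were higher, against 26.8%. Of 12 over 100 kb, 0 were higher, against 14.5%, and 50% were lower, against 27.2%. The 6 lower list genes were all in that last class. Beside Sqstm1, its fellow cargo receptor Nbr1 was higher, by 0.45 and 0.63. Sesn2, a stress-induced inhibitor of mTORC1, was higher by 0.27 and 0.38 and Tfec, a relative of Tfeb, by 0.35 and 0.32. Mtor (-0.48 and -0.68) and Prkag2 (-0.55 and -0.39) were lower there as in InjuredPT-A.

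With AAI, in normal proximal tubule, 3 of 66 list genes were higher in both genotypes and 2 lower, below the background of 7.66% and 5.83%. These were chosen after their values were seen. Foxo1 was higher by 0.21 and 0.40, Foxo3 by 0.56 and 0.46 and Vps41 by 0.24 and 0.40. Lamp2, the partner of Lamp1 in the lysosomal membrane, differed by -0.26 and -0.29 and Atp6v0b by -0.27 and -0.41. Foxo1 and Vps41 were thus higher with AAI in normal proximal tubule and lower in InjuredPT-A than in it.

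The genes whose log2(level + 1) was most like that of Vmp1 over the 92 columns, among 4272 genes with a mean of at least 0.5, were Zfp36 (Pearson r = 0.78), Mad1l1 (0.77), Gm28153 (0.77), Polk (0.76) and Spag5 (0.74). The columns share 4 libraries and differ in depth, and these values are descriptive. Zfp36, whose protein speeds the decay of AU-rich mRNAs, was at 3.20 and 7.70 in InjuredPT-A of the AAI mice against 0.856 and 1.14 in normal proximal tubule. Polk, a translesion DNA polymerase, was at 3.68 and 4.05 there against 1.27 and 1.55. Without InjuredPT-A the order changed, as without its columns 2 of the 5 were kept and the first gene was Mdm2, at 0.68. Tfeb was most like Zfp609 (0.82), Lamp1 like Ndufb9 (0.84), Gabarapl1 like Inmt (0.75), Sqstm1 like Ugdh (0.69), Ulk1 like 1600020E01Rik (0.55) and Wipi1 like Acat1 (0.46). Over the 46 columns of the AAI mice alone these orders changed. Of the 5 genes named for Vmp1 2 were kept, of the first 3 of each other gene 1 was kept for Sqstm1, Ulk1 and Tfeb and 0 for Gabarapl1, Lamp1 and Wipi1, and Inmt fell to 0.40 for Gabarapl1 and Ndufb9 to 0.77 for Lamp1. Among the 7 genes themselves the values ran from -0.46 for Sqstm1 and Tfeb to 0.47 for Gabarapl1 and Lamp1, and Vmp1 reached 0.38 with Sqstm1.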

How the data were processed

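Single-nucleus RNA was measured in 4 mice, 1 per condition, prepared in 1 batch per the study's methods. The authors aligned reads to a mouse pre-mRNA reference with Cell Ranger 3.1.0 and filtered and clustered nuclei with Seurat 4.3. The deposited values are a signal that was read from the table as counts of each nucleus scaled to 10000 and averaged per cluster and mouse on a linear scale. The function that made them is not stated in the sources used here, and doublet removal is not described for these data. Of 19632 rows, 23 with date-like names were left out. There were 0 columns of unknown samples.

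Differences were taken on log2(level + 1), with a larger value of at least 0.5 and a threshold of 0.2. Python 3.11.15, numpy 2.4.6 and pandas 2.3.3 were used. The steps were tested on simulated data with large known differences and little noise. That checks the arithmetic only, as no spread between mice, sparse columns or low levels were simulated. Annotation was GENCODE M21 on GRCm38, the build of the files. The genes and lists were chosen with earlier results of these data known. The text names the 8 genes, up to 3 genes per list and direction by the smaller difference of the AAI mice in each injured cluster, the 5 genes most like Vmp1 and the 3 most like each other gene (the first is printed), overlapping genes and cell type markers. With 1 mouse per condition no test was run and no error can be given. Another pseudocount, filter, threshold, centring and reference, and leaving out mitochondrially encoded genes, were tried.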

Additional observations from a re-analysis of the deposited data

Results flagged for a closer look

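AAI went with a difference past 0.2 in opposite directions in the 2 genotypes in 4 cases within normal proximal tubule, InjuredPT-A and InjuredPT-B. None of these differences between genotypes could be tested with 1 mouse per condition. For Lamp1 in normal proximal tubule AAI minus none was 0.29 in control and -0.33 in hKLF6OE, so hKLF6OE minus control was -0.63. For Lamp1 in InjuredPT-B it was 0.22 and -0.88, a difference of -1.10. For Ulk1 in InjuredPT-B it was -0.27 and 0.24, a difference of 0.51, and for Tfeb in InjuredPT-B -0.27 and 0.20, a difference of 0.47. Over all genes 1.26% of 3892 were past 0.2 in opposite directions in normal proximal tubule and 10.4% of 4398 in InjuredPT-B. In the other 21 clusters taken singly there were 13 such cases among the 7 genes, 7 of them for Lamp1, of which 4 were in normal proximal tubule clusters. The share over all genes was not worked out for single clusters, so whether 13 is many cannot be said. The InjuredPT-B columns without AAI had 51.3% of genes at 0 in control and 55.7% in hKLF6OE, and rest on few nuclei.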

How the results depend on the processing

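No paired analysis was possible because each condition had 1 mouse, and for the same reason no replicate was left out. Depth and nuclei per column are unknown, which limits every level, most of all in the thin columns of InjuredPT-A and InjuredPT-B without AAI.

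The choice of threshold moved the counts most. At 0.5, 0 genes were lower in InjuredPT-A (1 at 0.2), and in normal proximal tubule 0 were higher with AAI in either genotype, 0 lower with AAI in hKLF6OE and 0 higher or lower between genotypes. At 1, 1 gene was higher in InjuredPT-A (3 at 0.2), 0 were lower there, 0 were higher in InjuredPT-B, where Vmp1 at 0.87 and 0.97 fell short, and 0 were past it in normal proximal tubule. At 0.5 and 1, Vmp1 was higher with AAI in 9 and 2 clusters of control and 7 and 3 of hKLF6OE, Gabarapl1 lower in 13 and 3 of control and 13 and 2 of hKLF6OE, and Lamp1 of hKLF6OE lower in 6 and 0 and, without AAI, above control in 5 and 1. For these settings and those below, the shares of all genes were not worked out, so the counts cannot be set against the whole table. A minimum level of 1, or the 3 PT-S3 clusters as the reference, left 0 genes lower in InjuredPT-A, as Tfeb, the 1 gene called, then fell under the level filter in 1 mouse or both.

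A pseudocount of 0.1 gave 3 genes lower with AAI in control, and 2 without AAI and 3 with AAI lower in hKLF6OE than control in normal proximal tubule. Centring, or leaving out mitochondrially encoded genes, gave 2 lower in hKLF6OE with AAI (1 otherwise). Against normal proximal tubule of the mouse without AAI, Gabarapl1 turned to -0.59 and -0.017 in InjuredPT-A and to -0.44 in InjuredPT-B of hKLF6OE, Lamp1 to -0.29 there, and 1 gene was lower in InjuredPT-B. The cause was not tested, but that reference holds the AAI difference as well. Vmp1 in InjuredPT-A stayed past the threshold in both mice under all 9 alternatives run on it. As Vmp1 was chosen for its level there, that outcome supports nothing further.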
